A study of Mus musculus with 7 samples.

Results

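The genes described here are 33 genes of protein folding in the endoplasmic reticulum (ER) and of the unfolded protein response, chosen by name, among 22060 genes tested in MIN6 cells. MIN6 is an established insulin-secreting line derived from a mouse insulinoma. The cells had been kept for 3 days with Maidong polysaccharide extract (MPE, 4 arrays) or with phosphate-buffered saline as vehicle (3 arrays), and no other agent or genotype distinguished the groups. The culture notes list concentrations of MPE up to 50 μg/mL without saying which was used for the arrays, and nothing in the labels says that the replicates were cultured apart. The p-values therefore weigh each group difference only against the spread of these samples, moderated over all genes, and that spread may be technical. Members were found as the probes whose accession is a transcript of a member gene, which gave 52 of 56605 non-control probes and at least 1 probe for each gene. RNA of each sample was labelled with Cy3 and read on a 1-colour Agilent array, so the values are spot intensities. All levels below are log2 intensities relative to the 75th percentile of the probes of the same array. Brightness depends on the probe as well as on the transcript, so levels are compared between arrays and never between genes.

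Insulin enters the ER as preproinsulin and folds there with the help of chaperones, which hold unfolded chains, and of foldases, which form disulfide bonds and turn proline bonds. When unfolded protein accumulates, 3 sensors in the ER membrane respond. IRE1 (gene Ern1) splices the mRNA of the transcription factor Xbp1, ATF6 is cut to release a transcription factor, and PERK (gene Eif2ak3) phosphorylates eIF2 and slows translation. Their targets raise folding capacity and the removal of misfolded chains by ER-associated degradation. Beta cells carry a heavy folding load and depend on this system. Sensors are switched on at the protein level, and Xbp1 by splicing, so the intensities below measure transcript amounts and not sensor activity.

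The sequence feature by which ATF6 and XBP1 are known to act on many of these genes is the ER stress response element (ERSE), which reads CCAAT, then 9 bases of any kind, then CCACG. A shorter form, ERSE-II, reads ATTGG, then 1 base of any kind, then CCACG. Both were searched as exact letters on both strands in the RefSeq promoters (build GRCm38.p6), each 300 bases long from 250 bases before to 50 after a transcript start. Promoters were at hand for 29 of the 33 members and for 27025 genes in all. ERSE was found in 10 of the 29 members (34.5%) and in 37 of all 27025 genes (0.137%), members included. ERSE-II was found in 2 of the 29 members (6.9%), Dnajb11 and Herpud1, and in 12 of all genes (0.0444%). The letters CCAAT alone, which form part of ERSE and which ERSE-II holds on its other strand, were found in 24 of the 29 members (82.8%) and in 41.1% of all genes. TGACGTGG, the core of a further XBP1 site called UPRE, was found in none of the 29 members and in 0.714% of all genes. Hsp90b1 was the member with 2 exact ERSE copies, on opposite strands. A match is a description of letters, not a measured binding site, and a near match was not counted. The members were chosen by name as genes of this response, on many of which these elements are already known. Their higher shares of ERSE and ERSE-II therefore follow from that choice and are no separate finding.

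The matched letters are shown because they are what these otherwise unlike chaperone, oxidase and degradation genes share. Each line runs 5′ to 3′ along the strand on which the element reads, with the 2 fixed blocks of the element in capitals and 5 flanking bases on either side.
Hspa5 (ERSE, chr2:34772020-34772048, plus strand): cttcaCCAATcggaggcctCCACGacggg
Hsp90b1 (ERSE, chr10:86705633-86705661, minus strand): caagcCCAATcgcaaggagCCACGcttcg
Hsp90b1 (ERSE, chr10:86705528-86705556, plus strand): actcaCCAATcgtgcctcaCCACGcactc
Calr (ERSE, chr8:84847070-84847098, plus strand): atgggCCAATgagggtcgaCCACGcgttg
Canx (ERSE, chr11:50325795-50325823, minus strand): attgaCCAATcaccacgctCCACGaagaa
Dnajc3 (ERSE, chr14:118937822-118937850, plus strand): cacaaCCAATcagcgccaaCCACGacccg
Pdia6 (ERSE, chr12:17266486-17266514, plus strand): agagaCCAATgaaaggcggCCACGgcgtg
Creld2 (ERSE, chr15:88819515-88819543, minus strand): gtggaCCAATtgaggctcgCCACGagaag
Ero1b (ERSE, chr13:12565677-12565705, minus strand): ggcggCCAATgaggcgggaCCACGaggcc
Syvn1 (ERSE, chr19:6046527-6046555, plus strand): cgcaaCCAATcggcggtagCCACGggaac
Derl3 (ERSE, chr10:75893237-75893265, minus strand): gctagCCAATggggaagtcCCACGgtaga
Herpud1 (ERSE-II, chr8:94386372-94386392, plus strand): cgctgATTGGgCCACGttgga
Dnajb11 (ERSE-II, chr16:22857847-22857867, plus strand): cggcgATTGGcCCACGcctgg

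In Hspa5 the element lay from base -65 to base -47 counted from the start site, and in Syvn1 from -44 to -26. The farthest copy was that of Hsp90b1 at -212 to -194, and the Dnajb11 match lay after its start site, at bases 8 to 18. The 250 bases before the Hspa5 start site (chr2:34771840-34772089, plus strand) show the element, its fixed blocks again in capitals, in the promoter of the best-known target of the response. Hspa5 held CCAAT 4 times over both strands of its 300-base window, 1 of them inside the exact ERSE.
Hspa5 promoter: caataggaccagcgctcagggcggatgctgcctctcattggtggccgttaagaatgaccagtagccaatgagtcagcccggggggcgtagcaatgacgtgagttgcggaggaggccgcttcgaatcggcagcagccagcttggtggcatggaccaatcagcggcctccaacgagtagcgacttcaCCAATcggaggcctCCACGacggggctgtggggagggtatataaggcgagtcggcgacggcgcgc

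**Figure D1:**
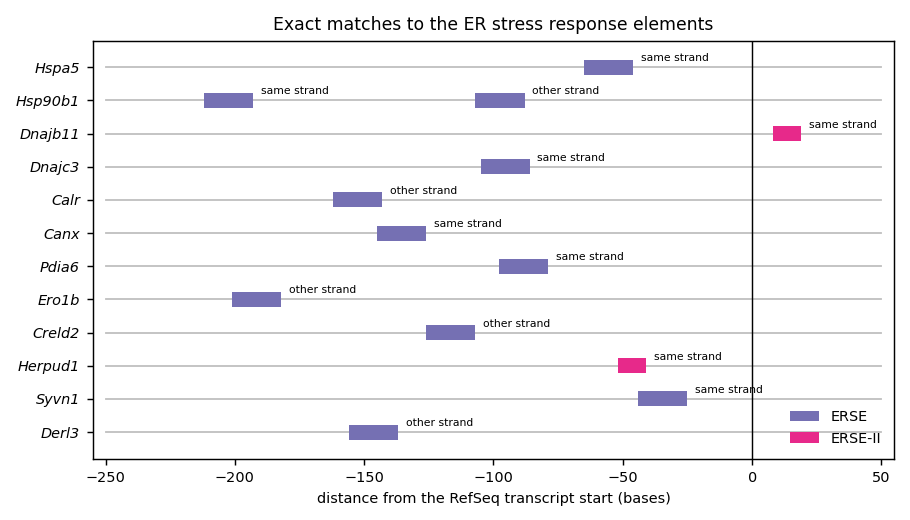
Position of each exact ERSE (violet) and ERSE-II (pink) match in the promoters of the 12 members that hold one, in bases from the RefSeq transcript start (black line), with the strand relative to the gene. All ERSE matches lie before the start site, and the ERSE-II match of Dnajb11 lies after it.

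Nearly all members were detected in these cells. Of the 33 members, 32 were well above background on all 7 arrays (97.0%), against 56.5% of the 22911 named genes on the array. The exception was Fkbp11, a proline isomerase of the secretory pathway, whose probe stood well above background on 0 of the 7 arrays. Its signals gave log2 levels of -5.83, -5.73 and -5.96 with vehicle and -5.96, -6.45, -6.07 and -5.19 with MPE, overlapping signals at background. Of the 52 member probes, 50 were well above background on all arrays. The other probe below background was 1 of 3 for Dnajb11, which is designed on another transcript accession. It gave -6.95, -7.06 and -6.96 with vehicle and -6.48, -6.47, -6.43 and -6.49 with MPE, all 4 MPE arrays lying above all 3 vehicle arrays, and it was not tested because it was at background. Its log2 difference of 0.52 stands beside a median of 0.48 over the 22213 probes that were well above background on no array, of which 18820 were higher with MPE. The cells carried the beta-cell pattern of the label, with 17 of 18 beta-cell markers well above background on all arrays, among them Ins1 and Ins2, and Slc2a2 on none. Of 8 acinar and duct markers none was well above background on all arrays and 6 were so on none. Of 11 stromal, endothelial and immune markers 4 were detected on all arrays (Itgam, Cd68, Cd3e and Acta2) and 4 on none, and the leukocyte gene Ptprc on 1 array. Itgam, an integrin of myeloid cells, stood at 4.39, 4.35 and 4.07 with vehicle and at 3.97, 3.82, 3.89 and 4.00 with MPE. Its groups did not overlap, and MPE stood at 0.783 times vehicle (0.673 to 0.911), with an unadjusted limma p of 0.0067 and an adjusted p of 0.984, so it did not pass. Itgam was named after its values were seen, and its part in the members' values was not tested. The log2 of the summed intensities of these 11 markers ran from 4.65 to 4.90 with vehicle and from 4.56 to 4.65 with MPE. Itgam gave the brightest signal of the measured ones and weighs most in this sum, so the lower range mainly repeats the Itgam difference. Of the 4 measured markers, 3 were higher and 1 was lower with MPE. Of 7 markers of other islet cell types 5 were detected on all arrays, the hormones Gcg and Sst among them.

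The arrays lay on 1 slide, vehicle in the upper row and MPE in the lower row, so the row of the slide and the treatment cannot be told apart in any comparison below. Between 27944 and 30122 probes per array were well above background. Every MPE array had fewer than every vehicle array, and the part of this in the members' values was not tested. Correlations between arrays across genes ran from 0.9906 to 0.9973, and no 2 arrays were identical.

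No member of the ER folding system passed the test between MPE and vehicle. In limma's moderated test with Benjamini-Hochberg adjustment over all genes, 0 of the 32 measured members passed the threshold of 0.05, and each had an adjusted p of 1. Across all genes tested 0.00453% passed. At an unadjusted p under 0.05, 1 member was higher (Edem2), against 0.757% of all genes, and 0 were lower, against 3.35%, so that 1 of 32 stood against 4.11% of all genes in either direction. The arrays of the groups did not overlap for 1 member that was higher with MPE (Edem2, against 1.17% of all genes) and 1 that was lower (Sec61b, against 3.36%), or 2 members against 4.53% of all genes in either direction. The log2 differences of the members ran from -0.096 to 0.15 with a median of -0.014, and the median over all genes was -0.016. These shares of members lie near those of all genes. By sign, 14 members were higher and 18 lower, a split that rests on the scaling, since with each array scaled to its median 1 was higher and 31 lower, and with quantile normalization 19 were higher and 13 lower.

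The intervals give the precision of the differences on these arrays at the main scaling. They set no bound on an effect of MPE, since treatment and slide row coincide and the spread may be technical. For 30 of the 32 members (93.8%) the 95% interval of the difference lay inside 1.25-fold in both directions, against 56.2% of all genes, and for all 32 it lay inside 1.5-fold, against 80.7% of all genes. Only the intervals of Hyou1 and Calr reached past 1.25-fold, both on the lower side. With each array scaled to its median instead, the count of members inside 1.25-fold was 21. The median within-group standard deviation was 0.065 on the log2 scale over the members and 0.12 over all genes. The measured members were well above background on all 7 arrays, and 19713 of the 22060 genes tested also had such a probe. The difference in spread was not tested as a property of the group.

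**Figure D2:**
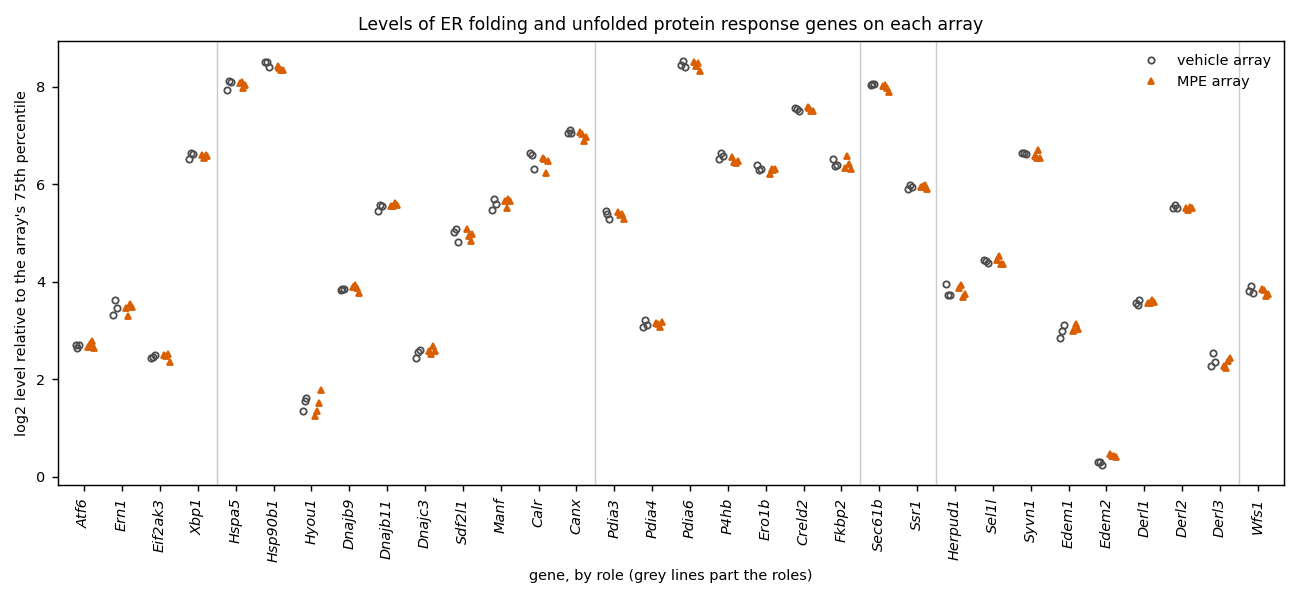
Log2 level of the 32 measured members on each of the 3 vehicle arrays (open circles) and 4 MPE arrays (triangles), relative to the 75th percentile of the array and ordered by role. The symbols of the groups interleave for all members but Edem2 and Sec61b, and heights of different genes are not comparable.

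**Figure D3:**
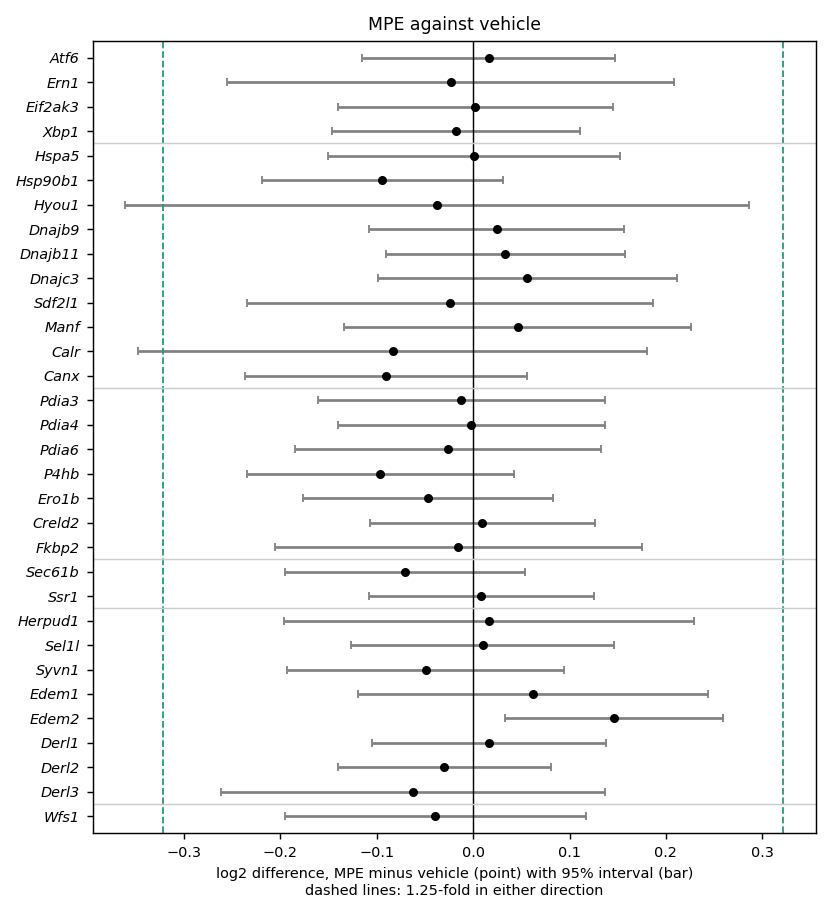
Log2 difference of each measured member, MPE minus vehicle, with its 95% interval from limma, and dashed lines at 1.25-fold. The interval of Edem2 is the only one that leaves out 0, and those of Hyou1 and Calr are the 2 that cross a dashed line.

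Of the 3 sensors, Atf6 and Eif2ak3 varied little between arrays and Ern1 more, and none passed the test. Atf6 stood at 2.71, 2.64 and 2.70 on the vehicle arrays and at 2.66, 2.72, 2.78 and 2.65 on the MPE arrays. The MPE range of Atf6 held 2 of the 3 vehicle values and its lowest vehicle array was the lowest of all 7, so the groups overlapped, and the MPE level was 1.01 times vehicle (95% interval 0.923 to 1.11). Eif2ak3 stood at 2.43, 2.46 and 2.49 with vehicle and at 2.50, 2.48, 2.52 and 2.35 with MPE. For Eif2ak3, replicate 4 of the MPE group was the lowest array and the other 3 MPE arrays lay at the upper end, with a log2 difference of 0.0021 (SE 0.060). Ern1 varied more from array to array, at 3.31, 3.63 and 3.47 with vehicle and 3.46, 3.29, 3.55 and 3.48 with MPE. Its extremes, the lowest and the highest array, came one from each group, and MPE stood at 0.984 times vehicle (0.838 to 1.16).

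Xbp1, the transcription factor made after IRE1 splicing, was read by 3 probes, and the deposited files do not say whether any of them tells the spliced from the unspliced mRNA. The probe with the highest mean gave 6.51, 6.65 and 6.63 with vehicle and 6.60, 6.54, 6.59 and 6.58 with MPE, or 0.988 times vehicle (0.903 to 1.08). A dimmer probe gave 2.55, 3.04 and 3.07 against 2.92, 2.79, 3.14 and 3.05. The dimmest gave 1.56, 2.10 and 2.10 against 1.96, 1.80, 2.22 and 2.02. In all 3 probes vehicle replicate 1 was the lowest array and MPE replicate 2 the next, so the probes ordered these arrays alike. The log2 differences were -0.018, 0.087 and 0.081, with intervals that all included 0.

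Among the chaperones, Hspa5 (BiP, the main Hsp70 of the ER and the repressor of all 3 sensors at rest) was at the same mean in both groups. Its levels were 7.94, 8.12 and 8.09 with vehicle and 8.08, 8.09, 7.98 and 8.04 with MPE, all 4 MPE arrays lying inside the vehicle range. The MPE level was 1.00 times vehicle (0.901 to 1.11). The equality of the Hspa5 means rests on the scaling. The log2 difference was 0.072 with quantile normalization and -0.069 with each array scaled to its median. The other 2 Hspa5 probes gave log2 differences of -0.098 (SE 0.070) and -0.023 (SE 0.058), neither with an interval away from 0. Hsp90b1 (GRP94, the Hsp90 of the ER) stood at 8.50, 8.50 and 8.40 with vehicle and 8.42, 8.39, 8.34 and 8.34 with MPE. Vehicle replicate 3 lay below MPE replicate 1, so the Hsp90b1 groups overlapped, and MPE stood at 0.937 times vehicle (0.859 to 1.02).

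The lectin chaperones Calr and Canx hold glycoproteins while they fold. Calr stood at 6.65, 6.61 and 6.31 with vehicle and 6.54, 6.51, 6.24 and 6.47 with MPE. Replicate 3 was the low array of Calr in both groups, and the other arrays lay within 6.47 to 6.65. Canx stood at 7.06, 7.12 and 7.05 with vehicle and 7.07, 7.03, 6.88 and 6.97 with MPE, or 0.939 times vehicle (0.849 to 1.04), and its other probe gave a log2 difference of the opposite sign, 0.033. Neither lectin passed the test, and Calr stood at 0.944 times vehicle (0.786 to 1.13).

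Hyou1, an Hsp110-type exchange factor for BiP, had the largest spread of the measured members. It stood at 1.35, 1.55 and 1.62 with vehicle and at 1.25, 1.34, 1.52 and 1.77 with MPE, so that MPE held both the lowest and the highest array. Its 3 probes gave log2 differences of -0.037, 0.048 and -0.11, and on each of them MPE replicate 4 was the highest MPE array. The J-domain partners of BiP were closer together. Dnajb9, an IRE1 target that also quiets IRE1, stood at 1.02 times vehicle (0.928 to 1.11), Dnajb11 at 1.02 times (0.939 to 1.11), and Dnajc3 (p58IPK, also known as an inhibitor of PERK) at 1.04 times (0.933 to 1.16). Sdf2l1, which works with Dnajb11, stood at 5.01, 5.09 and 4.82 with vehicle and at 5.08, 4.93, 4.83 and 4.97 with MPE, with replicate 3 again the low array of both groups. Manf, a small ER-resident factor that cells release under ER stress, stood at 1.03 times vehicle (0.912 to 1.17), and its 2 probes gave log2 differences of 0.046 and 0.0395. Of the 10 chaperone genes, 5 were higher and 5 lower by sign, and none passed.

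The foldases make and shuffle the disulfide bonds that proinsulin needs. The protein disulfide isomerases Pdia3, Pdia4 and Pdia6 stood at 0.991, 0.999 and 0.982 times vehicle. P4hb, the classical protein disulfide isomerase, stood at 6.51, 6.65 and 6.58 with vehicle and 6.56, 6.45, 6.44 and 6.48 with MPE. For P4hb 3 of the 4 MPE arrays lay below all vehicle arrays and MPE replicate 1 lay among them, which gave 0.935 times vehicle (0.850 to 1.03). Ero1b, the ER oxidase prominent in the pancreas, stood at 6.39, 6.29 and 6.31 with vehicle and 6.21, 6.32, 6.29 and 6.31 with MPE. All but 2 Ero1b arrays lay between 6.29 and 6.32, the exceptions being replicate 1 of each group, high with vehicle and low with MPE. Creld2, an ER stress-inducible protein with isomerase-like domains, had a narrow range, from 7.50 to 7.58 over all 7 arrays. Fkbp2, a proline isomerase, stood at 0.989 times vehicle (0.867 to 1.13). By sign 1 of the 7 measured foldase genes was higher and 6 were lower, and none passed. With quantile normalization the signs of Pdia3, Pdia4, Pdia6 and Fkbp2 turned.

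The translocation genes bring secretory chains into the ER. Sec61b, a subunit of the Sec61 channel, stood at 8.04, 8.06 and 8.06 with vehicle and 8.01, 8.04, 7.98 and 7.90 with MPE. The Sec61b groups did not overlap, but the lowest vehicle and the highest MPE array round to the same 8.04, and the log2 difference was -0.071 (SE 0.052), which did not pass. Its size rests on the scaling, at -0.00035 with quantile normalization and -0.141 with each array scaled to its median. The second Sec61b probe, whose spot on MPE replicate 1 was flagged as an outlier, gave 7.71, 7.74 and 7.73 with vehicle and 7.69, 7.73 and 7.65 on the other MPE arrays, which overlap. Ssr1, the alpha subunit of the translocon-associated protein complex, ran from 5.90 to 5.99 over the arrays and stood at 1.01 times vehicle (0.927 to 1.09). Wfs1 encodes wolframin, an ER membrane protein whose loss causes a syndromic diabetes. It stood at 3.81, 3.91 and 3.76 with vehicle and 3.86, 3.83, 3.70 and 3.75 with MPE, overlapping groups at 0.973 times vehicle (0.873 to 1.08).

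ER-associated degradation held the member with the smallest p. Edem2, which trims mannose from misfolded glycoproteins and so marks them for removal, stood at 0.31, 0.30 and 0.24 with vehicle and at 0.47, 0.43, 0.43 and 0.40 with MPE. All 4 MPE arrays lay above all 3 vehicle arrays, at 1.11 times vehicle (1.02 to 1.20). The unadjusted limma p was 0.0189 and the adjusted p was 1, so Edem2 did not pass. Its second probe gave -0.42, -0.17 and -0.41 with vehicle and -0.33, -0.07, -0.31 and -0.28 with MPE. On that probe replicate 2 was the high array of both groups, the groups overlapped, and the log2 difference was 0.089 (SE 0.094). The difference of Edem2 was positive under every alternative run, from 0.076 to 0.16. The alternatives reuse the same arrays, so the shared sign is no separate support. The within-group standard deviation of Edem2, 0.032, was among the smallest of the members. For Edem2 the unadjusted limma p was 0.368 with each array scaled to its median and 0.101 with the mean over both probes. It was 0.0677 without vehicle replicate 3 and 0.0528 without MPE replicate 1.

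The other degradation genes showed no separation. Sel1l and Syvn1 (HRD1) form the ubiquitin ligase that beta cells use to clear misfolded proinsulin. Sel1l stood at 4.44, 4.43 and 4.39 with vehicle and 4.45, 4.52, 4.37 and 4.36 with MPE, the MPE arrays lying on both sides of the vehicle arrays. Syvn1 was tight with vehicle, at 6.65, 6.64 and 6.63, and wider with MPE, at 6.57, 6.54, 6.71 and 6.54. Its 3 lower MPE arrays lay below the vehicle arrays and MPE replicate 3 above them, and MPE stood at 0.966 times vehicle (0.875 to 1.07). Herpud1, which recruits that ligase and is strongly induced by ER stress, stood at 3.95, 3.72 and 3.72 with vehicle and 3.88, 3.93, 3.69 and 3.74 with MPE. Vehicle replicate 1 and MPE replicates 1 and 2 were the high Herpud1 arrays, a pattern that its second probe did not share, at 1.85, 2.02 and 1.89 against 2.01, 1.87, 1.86 and 1.83.

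Edem1, of the same gene family as Edem2, stood at 2.84, 2.99 and 3.11 with vehicle and 2.99, 3.01, 3.13 and 3.04 with MPE, or 1.04 times vehicle (0.920 to 1.18). The derlins form part of the channel through which chains leave the ER. Derl1 stood at 1.01 times vehicle, with all 7 arrays between 3.52 and 3.63, and Derl2, which had the smallest within-group spread of the members, at 0.979 times (0.907 to 1.06). Derl3, the derlin most tied to secretory cells, stood at 2.28, 2.54 and 2.35 with vehicle and 2.27, 2.23, 2.38 and 2.43 with MPE. The highest Derl3 array was a vehicle array and the lowest an MPE array, with the rest mixed. By sign 5 of the 8 degradation genes were higher and 3 lower.

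Several probes per gene gave a check on these differences within the same RNA. For 14 members with more than 1 usable probe, the log2 differences of the probes lay within 0.16 of each other, the widest being Hyou1. The sign was shared by all probes for 7 genes (Dnajb9, Manf, Pdia3, Sel1l, Edem1, Edem2 and Derl2) and differed for 7 (Xbp1, Hspa5, Hyou1, Dnajb11, Canx, Ssr1 and Herpud1). The mean levels of probes for 1 gene differed by up to 4.97 on the log2 scale, for Sel1l, which is why levels were not set against each other between genes.

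**Figure D4:**
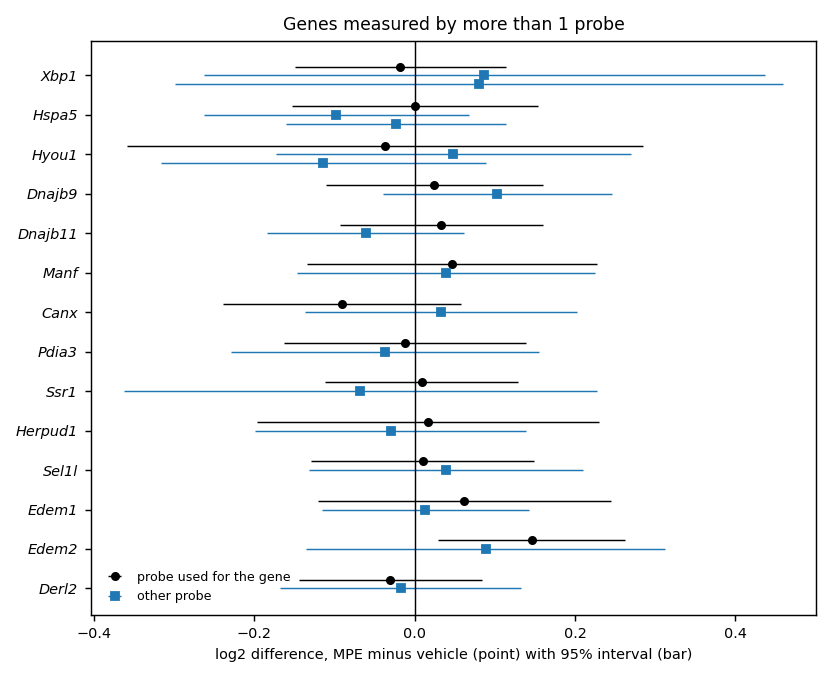
Log2 difference, MPE minus vehicle, with 95% intervals from a limma fit over all probes that passed the filter, for each usable probe of the 14 members with more than 1. Black circles mark the probe used for the gene and blue squares the others. All intervals but that of the first Edem2 probe include 0.

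The 12 members with an exact element had differences in the range of the other members. Their log2 differences ran from -0.094 to 0.056 with a median of -0.037, 5 higher and 7 lower. The 16 measured members whose promoter held neither element ran from -0.096 to 0.15 with a median of -0.014, 6 higher and 10 lower. Outside the members, 37 genes held an exact element in a promoter, and 14 of them were measured, with 0 passing the adjusted threshold and 1, Esp36, at an unadjusted p under 0.05 (4.11% of all genes). Their median log2 difference was 0.0061, against the -0.016 of all genes, and they ran from -0.26 to 3.03. The highest was Esp36, named after its values were seen, whose probe was well above background on 0 vehicle arrays and 3 MPE arrays and so gives no measured vehicle level, and the next was Lrif1 at 0.19.

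The order of the arrays changed from member to member. Vehicle replicate 2 was the highest of the 7 arrays for 12 of the 32 members, MPE replicate 3 for 7 and vehicle replicate 1 for 5. The lowest array was MPE replicate 4 for 8 members and vehicle replicate 1 and MPE replicate 3 for 7 each. Over the members, the median deviation from the vehicle mean was -0.016, 0.035 and -0.0098 on the vehicle arrays and 0.0099, -0.014, -0.0085 and -0.028 on the MPE arrays. Replicate 3 was the lowest of replicates 1 to 3 in both groups for 7 members, Hsp90b1, Sdf2l1, Calr, Canx, Creld2, Sel1l and Wfs1, against 28.2% of all genes. It was the highest in both for 5 members, against 23.1% of all genes.

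**Figure D5:**
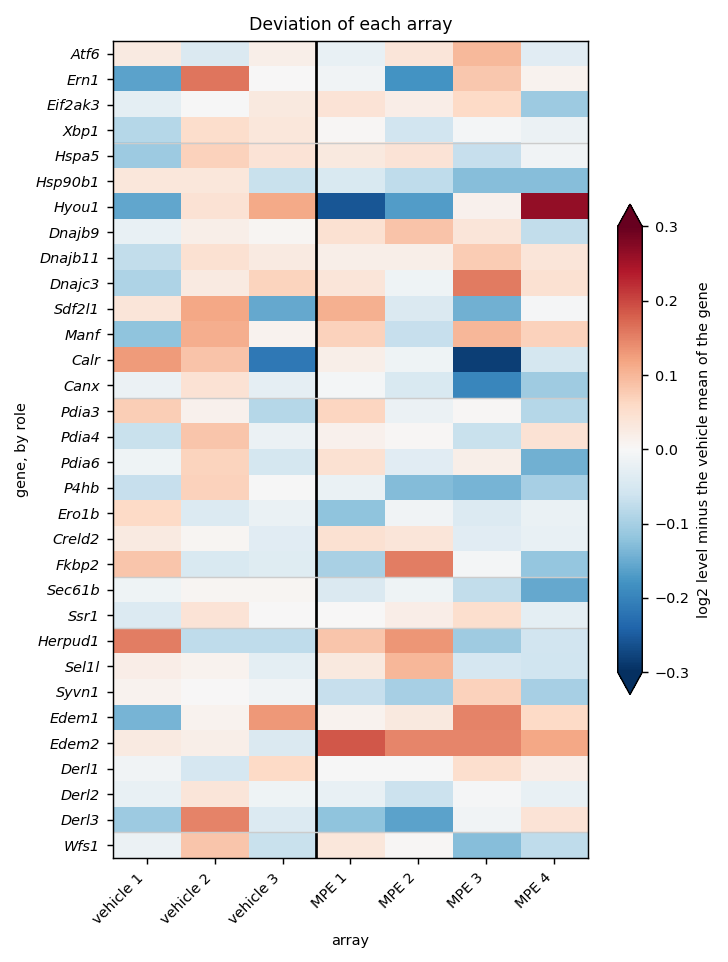
Log2 level of each measured member on each array minus the vehicle mean of that gene, from blue (lower) to red (higher), with a black line between vehicle and MPE arrays. Edem2 is red on all 4 MPE arrays, Calr is lowest on replicate 3 of both groups, and Hyou1 ranges widest within the MPE group.

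No gene of the wider pathway passed the test either. Of 97 further genes of ER signalling, folding, translocation and degradation, 95 were measured, 39 higher and 56 lower, with a median log2 difference of -0.0097. In limma's test over all genes 0 passed, and 0 had an unadjusted p under 0.05, against 4.11% of all genes. Downstream of PERK, the transcription factor Atf4 stood at 0.954 times vehicle (0.816 to 1.11), its stress partner Ddit3 (CHOP) at 1.06 times (0.866 to 1.30) and the phosphatase subunit Ppp1r15a (GADD34), which restores translation, at 0.960 times, with an interval that included 1. The oxidase Ero1a, the sister of Ero1b, stood at 1.03 times (0.888 to 1.20), and Sec61a1, the pore of the Sec61 channel, at 0.988 times (0.902 to 1.08). By group, 10 of 19 signalling genes, 9 of 23 folding genes, 10 of 30 translocation genes and 10 of 23 degradation genes were higher. The groups did not overlap for 1 higher gene, Tram2 (1.17% of all genes), and 1 lower gene, Erp29 (3.36%), or 2 of 95 against 4.53% of all genes. Both were named after their values were seen. The translocation factor Tram2 had a difference of 0.17 (SE 0.091) and the ER protein Erp29 one of -0.079 (SE 0.044). The insulin genes, the main load on this system, stood at 0.900 times (Ins1) and 0.881 times (Ins2) vehicle, with intervals that included 1.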

How the data were processed

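Total RNA of 7 MIN6 samples was read on Agilent mouse arrays with a single dye. Per the file headers, the authors used Agilent Feature Extraction 11.5.1.1 to background-subtract and detrend each spot intensity, while the submitters' processing notes give version 10.5.1.1. Flags for controls, outliers and detection were deposited with the intensities. The authors' deposited value table holds log2 values with a median of 4.438 in every column. Each column correlated with its array's log2 intensities at 0.9996 or more, so the scale is log2, the direction is that of intensity and genes were not centred, and the sources used here do not name the tool behind it.

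Control spots were dropped, as were 611 values flagged as outliers, and 0 spots were saturated. Spots of 1 probe were averaged as log2 of the processed intensity, and the 75th percentile of the array was subtracted. Of 56605 probes, 28874 had a value on every array and were well above background on at least 3 arrays. Accessions were named through the RefSeq gene table of GRCm38.p6 (32994 probes matched, names only). The probe with the highest mean stood for a gene, which left 22060 genes, 13653 with a symbol. limma 3.58.1 in R 4.3.3 (lmFit, eBayes) gave MPE minus vehicle from a model that held treatment alone, and p-values were adjusted by Benjamini-Hochberg over all genes at 0.05. The fit was tested on simulated data. All members are named. Of the other pathway genes 5 were fixed by name. Up to 3 per direction could be added at an unadjusted limma p under 0.05 with separate groups, and 0 qualified. Of the markers 5 were fixed by name. Genes said to be chosen after their values were seen are named too. Slc2a2, Cd68, Cd3e, Acta2 and Lrif1 were named outside these rules, with their values known. Members and lists were chosen with earlier results of these data known. The number of arrays limits the precision. The alternatives were other scalings, filters, probe rules and variance models, normexp (on median spot intensity, because the files used here hold no mean), the authors' table, blocks for replicate number and slide column, and each array left out.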

Additional observations from a re-analysis of the deposited data

How the results depend on the processing

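In limma's test 0 members and 0 other pathway genes passed the adjusted threshold under each of the 19 alternatives. Some alternatives repeat the log2 differences of others, as given below. The smallest adjusted p of a member was 0.0547, for Edem2 without a filter on dim probes, where 9968 of 45478 genes passed, and over all alternatives the adjusted p of Edem2 ran from 0.0547 to 1. The count of members at an unadjusted p under 0.05 was 0 with median scaling and with the mean over probes, and 0 to 1 with an array left out. Intervals within 1.25-fold, a count chosen after seeing the data, held for 21 members with median scaling and for 28 to 32 under the other alternatives. The median log2 difference over the members was -0.0839 with median scaling, 0.0149 with quantile normalization, 0.0266 with normexp, 0.0149 in the authors' value table, 0.00841 with the replicate block, and -0.0163 to 0.00841 with an array left out. Median scaling moved the median of all genes to -0.0857.

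Of the 32 members, 6 kept the sign of their log2 difference under all 19 alternatives, and the cause was not tested. With median scaling Atf6 at -0.0536, Eif2ak3 at -0.0677, Hspa5 at -0.0692, Dnajb9 at -0.0452, Dnajb11 at -0.0365, Dnajc3 at -0.0135, Manf at -0.0237, Creld2 at -0.0606, Ssr1 at -0.0612, Herpud1 at -0.0530, Sel1l at -0.0599, Edem1 at -0.00777 and Derl1 at -0.0535 turned. With quantile normalization Xbp1 at 0.0255, Pdia3 at 0.00223, Pdia4 at 0.0104, Pdia6 at 0.0452 and Fkbp2 at 0.0165 turned. With the percentile over detected probes Pdia4 at 0.00302 turned. With normexp Eif2ak3 at -0.0243, Xbp1 at 0.000226, Hsp90b1 at 0.0399, Hyou1 at 0.0103, Sdf2l1 at 0.0452, Pdia4 at 0.0294, Pdia6 at 0.0933, Ero1b at 0.00296, Fkbp2 at 0.0283 and Sec61b at 0.0249 turned. In the authors' value table Xbp1 at 0.0256, Pdia3 at 0.00224, Pdia4 at 0.0111, Pdia6 at 0.0452 and Fkbp2 at 0.0161 turned. The same genes turned with quantile normalization at close values, so these alternatives nearly repeat each other. With the mean over probes Xbp1 at 0.0500, Hspa5 at -0.0399, Dnajb11 at -0.0139, Ssr1 at -0.0295 and Herpud1 at -0.00659 turned. With array weights Hspa5 at -0.00419, Manf at -0.00786, Fkbp2 at 0.00972 and Ssr1 at -0.00749 turned. With the replicate block Pdia3 at 0.0137, Pdia6 at 0.0135 and Fkbp2 at 0.0160 turned. With the slide column as a block Atf6 at -0.0102, Eif2ak3 at -0.0179, Sdf2l1 at 0.0167, Pdia4 at 0.0201 and Ssr1 at -0.00376 turned. With 1 array left out in turn, the log2 differences that changed sign ran for Eif2ak3 from -0.0179 to 0.0405, Hspa5 from -0.0556 to 0.0348, Dnajb11 from -0.00227 to 0.0549, Manf from -0.0148 to 0.103, Pdia3 from -0.0554 to 0.0248, Fkbp2 from -0.0719 to 0.0252, Ssr1 from -0.0122 to 0.0296, Edem1 from -0.00798 to 0.126, Atf6 from -0.0102 to 0.0346, Ern1 from -0.105 to 0.0593, Xbp1 from -0.0607 to 0.0101, Sdf2l1 from -0.102 to 0.0339, Pdia4 from -0.0338 to 0.0411, Pdia6 from -0.0541 to 0.0135, Herpud1 from -0.0237 to 0.0918, Derl1 from -0.0101 to 0.0478, Derl3 from -0.117 to 0.0107, Wfs1 from -0.0738 to 0.00310, Hyou1 from -0.137 to 0.0366, Creld2 from -0.00562 to 0.0228 and Sel1l from -0.0200 to 0.0306.

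Replicate numbers were not taken as pairs. Deviations of same-numbered arrays correlated at 0.247, 0.0509 and 0.413, and vehicle replicate 1 correlated best with MPE replicate 2 (0.306). Vehicle replicate 1 correlated at -0.334 and -0.182 with MPE replicates 3 and 4. Vehicle replicate 3 correlated at -0.317 and -0.313 with MPE replicates 1 and 2, and at 0.172 with MPE replicate 4. Vehicle replicate 2 ran from -0.150 to 0.126. The main model held treatment alone, so this shared pattern stayed in the spread, and its cause was not tested. With the replicate block, 0 members passed in limma, and Edem2 had a log2 difference of 0.16 and an adjusted p of 0.540. No vehicle array carries the number of MPE replicate 4, so this block gave the members the same log2 differences as leaving that array out. The slide column block likewise gave those found without MPE replicate 3, since no vehicle array lay above it on the slide. The blocks differed from these fits only in the spread, so they are no separate check on the differences. The number of arrays and the slide rows limit every comparison.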
